A study of Homo sapiens with 8 samples.

Results

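The WD repeat (WDR) family comprises the human genes that carry the family's own symbol, WDR followed by a number. Members were taken as protein-coding genes with such a symbol and at least 100 counts summed over the 4 input libraries, and 49 of the 57 WDR genes among 60664 gene rows qualified. The 8 genes left out had between 1 count (WDR64) and 34 counts (WDR86) in the inputs, and the members closest to the limit were WDR31 with 217 counts and WDR17 with 295. Input sums of the members reached 41007 counts for WDR1, with a median of 3948. All 49 members entered the test in both pulldowns.

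Ribosome-protected fragments, the stretches of mRNA shielded by a ribosome from nuclease, were sequenced from human U-2 OS osteosarcoma cells. A pulldown through a HaloTag (a protein tag that binds its ligand covalently) recovered ribosomes together with a tagged chaperone, and the input was the total ribosome fraction of the same line. In the CCT4-Halo line the tag was inserted into the endogenous gene of a subunit of the chaperonin TRiC. In the PFDN4-Halo line the tag was on a subunit of prefoldin (PFD). Input and pulldown of both lines made 4 groups of 2 biological replicates, and each line was derived from a single clone, so that line and clone cannot be told apart. All groups alike received cycloheximide at 100 µg/ml for 1 min to hold ribosomes in place and the crosslinker DSP at 2 mM for 30 min.

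WD repeat proteins fold into a β-propeller, a ring of blades in which each repeat tends to close with the tryptophan-aspartate (Trp-Asp) pair that gave the family its name. Because the first and last strands often share a blade, the ring closes only once the repeats have been made. Propellers serve as rigid platforms on which other proteins and RNAs assemble, and the family therefore spans unrelated pathways. TRiC is a ring-shaped ATP-dependent chaperonin that encloses folding proteins, among them actin, tubulin and a number of WD repeat proteins, and PFD is a jellyfish-shaped co-chaperone that binds nascent chains and hands substrates to TRiC. Whether WDR transcripts were over- or under-represented among ribosomes recovered with each chaperone was the question of both comparisons.

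The repeat signature was visible in the coding sequences. An in-frame tryptophan codon followed by an aspartate codon (TGGGAT or TGGGAC, read on the coding strand only) occurred at least once in 91.7% of the 48 members with a usable canonical coding sequence, and at least 3 times in 52.1% of them. Across 19666 protein-coding genes these shares were 26.0% and 2.27%. The median member carried 3 such pairs and WDR90 carried 8. In the 44 members with a pair, the median position of the first was 29.5% and that of the last 69.25% of the way along the protein. WDR13, WDR44, WDR46 and WDR54 had none of these codon pairs, which says only that the letters are missing from the annotated reading frame. One stretch of 30 bases is given below for WDR27, WDR17 and WDR90, the members with the largest increases in the TRiC pulldown, for WDR18, with the lowest fitted value there, and for WDR1 and WDR5, propellers of well-known function. Each is the first Trp-Asp codon pair whose surroundings lie within 1 exon of the canonical GENCODE transcript on hg38, written 5′ to 3′ on the coding strand, and capitals mark the codon pair.
WDR1 (chr4:10099099-10099128, minus strand, exon 4, tryptophan 85 of 606 residues): aagctgaggatcTGGGATaccacgcagaag
WDR5 (chr9:134142645-134142674, plus strand, exon 7, tryptophan 156 of 334): agcgtgaggataTGGGATgtgaaaacaggg
WDR17 (chr4:176125172-176125201, plus strand, exon 5, tryptophan 207 of 1283): acggccttggaaTGGGACccactatctact
WDR18 (chr19:991294-991323, plus strand, exon 7, tryptophan 296 of 432): accgtgcgcctcTGGGACgtgcagagcaag
WDR27 (chr6:169613561-169613590, minus strand, exon 22, tryptophan 768 of 895): gggatgagactgTGGGACctgagaaccctg
WDR90 (chr16:653591-653620, plus strand, exon 12, tryptophan 438 of 1748): gtgatgcggctcTGGGACttccagaccggg

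The libraries held between 9523128 and 32637658 counts, of which the members made up 0.331 to 0.564%. Levels below are given as CPM, counts scaled to a common library size within each line. The spread between replicates differed greatly between the lines. The common dispersion, edgeR's estimate of variance beyond counting noise, was 0.01526 for the TRiC line and 0.3306 for the PFD line, and the median coefficient of variation of a member between both pulldowns was 7.67% and 19.5%. Simulated data used the spread estimated for each gene, and only genes with a mean of at least 100 counts were changed. Recovery of members with fewer counts was therefore not assessed. In these data the TRiC comparison recovered 186 of 200 genes changed by 2-fold and 31 of 200 changed by 1.25-fold. The PFD comparison recovered 42 and 1 of 200. False calls numbered 15 and 4 for TRiC and 6 and 9 for PFD, so that at 1.25-fold they outnumbered the recovered genes in PFD. The share of mitochondrially encoded counts was lower in each pulldown than in its inputs (0.171 and 0.213% against 1.51 and 1.63% for TRiC, 0.339 and 0.188% against 0.966 and 0.910% for PFD), and its part in the results on WDR genes was not tested. The mesenchymal markers VIM, COL1A1, RUNX2, CD44 and THY1 were present in all libraries, whereas COL1A2 did not exceed 1.98 CPM. Of the osteoblast markers, SP7 and BGLAP were at or near 0, and ALPL lay at 2.46 to 3.43 CPM in the TRiC line and 25.3 to 42.8 CPM in the PFD line. The epithelial markers EPCAM and KRT14 reached 18.2 and 29.1 CPM in single libraries, CDH1 and KRT5 stayed at or below 3.72 CPM, and the blood markers PTPRC, HBB and CD3E did not exceed 0.199 CPM.

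Per kilobase of coding sequence, ribosome occupancy in the inputs ranged from 1.02 CPM per kb (WDR17) to 216 CPM per kb (WDR1) in the TRiC line, and the same genes marked the ends of the range in the PFD line, at 0.603 and 339 CPM per kb. WDR1 promotes the disassembly of actin filaments together with cofilin, and its inputs lay at 219 and 214 CPM per kb in the TRiC line and 335 and 342 CPM per kb in the PFD line. By the sum of the levels in both lines, the next highest were WDR77, a partner of the arginine methyltransferase PRMT5, WDR6, which acts in tRNA methylation, and WDR3 and WDR43, both components of the small-subunit processome that assembles the small ribosomal subunit. Within a line the ranks differed: WDR43 was 9th in the TRiC inputs, below WDR82, WDR54, WDR5 and WDR18, and WDR3 was 7th in the PFD inputs, below WDR12 and WDR5. Because each line was normalized separately no level was tested between them. WDR43 had 49.8 and 58.5 CPM per kb in the TRiC inputs and 158 and 147 CPM per kb in the PFD inputs. How many other genes differ this far between the lines was not counted. WDR3 was the least reproducible of the abundant members, with 218 and 99.1 CPM per kb in the TRiC inputs.

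In the TRiC pulldown, 7 of 49 members were higher than in the input and 5 were lower (edgeR quasi-likelihood test, adjusted p under 0.05 over all genes tested). These are 14.3% and 10.2% of the family, against 8.64% higher and 10.6% lower among all 17934 genes tested. With counts scaled by library totals alone or by cyclic loess, the split was 7 higher and 2 lower, although WDR97 was not among the 7 under cyclic loess. In a fit of all 8 libraries, with a common dispersion of 0.2228, there were 0 calls. At an unadjusted p under 0.05 there were 16 members, where 32.5% of all genes passed. The family as a whole was centred on 0, with 24 fitted values above it and 25 below and a median log2 fold change of −0.01 against −0.03 for all protein-coding genes tested. The members that rose included the intraflagellar transport protein WDR19, the centriole protein WDR90, the tRNA methylation factor WDR4 and the trafficking factor WDR11, and those that fell included the ribosome biogenesis factors WDR18 and WDR46, the actin regulator WDR1 and WDR6. Fold changes were modest throughout, the largest being 1.87-fold.

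**Figure D1:**
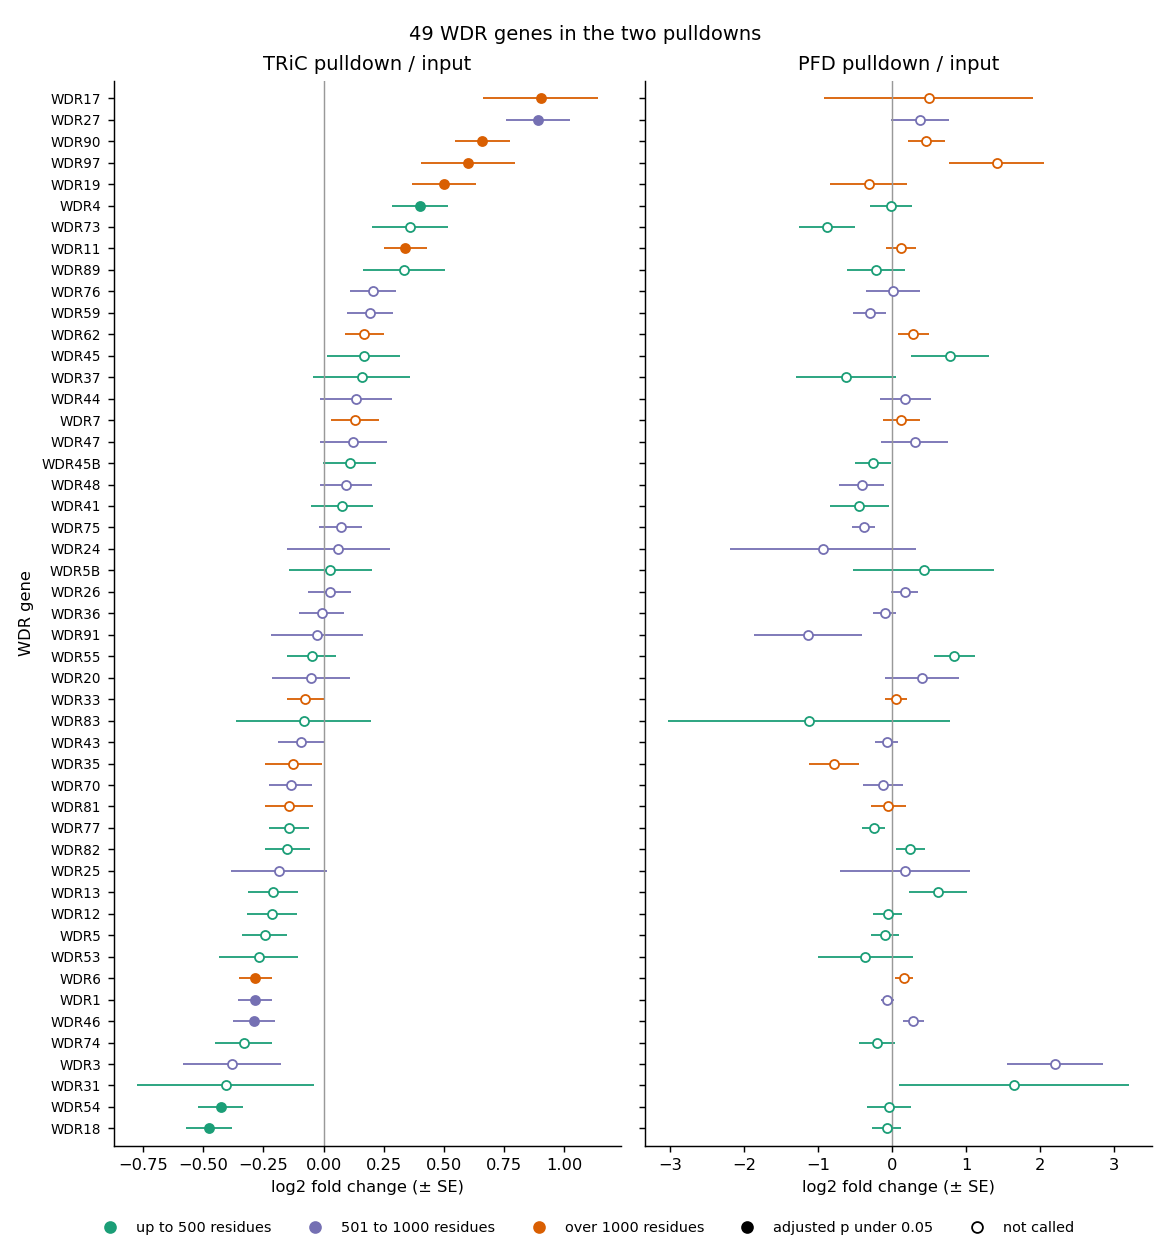
Log2 fold change of pulldown over input for the 49 WDR genes, ordered by the TRiC value, in the TRiC line (left) and the PFD line (right, wider axis). Points are fitted values with standard errors from 2 against 2 libraries, colours give protein length and filled points have an adjusted p under 0.05: 12 are filled for TRiC and 0 for PFD, where the standard errors are wider.

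The largest increase with a narrow error was that of WDR27 (ENSG00000184465, chr6:169457212-169702067), for which no role was assigned. Its inputs had 18.4 and 20.2 CPM and its TRiC pulldowns 31.9 and 40.0 CPM, a log2 fold change of 0.89 (SE 0.13, adjusted p = 0.000235). Both pulldowns thus lay well above both inputs. WDR17 (ENSG00000150627, chr4:176065841-176182818), the least abundant member per kilobase, had 3.79 and 4.03 CPM in the inputs and 6.81 and 7.83 CPM in the pulldowns (0.90, SE 0.24, adjusted p = 0.0129). WDR90 (ENSG00000161996, chr16:649311-667833), which holds together the microtubule wall of the centriole, had 29.2 and 27.1 CPM in the inputs and 41.4 and 47.6 CPM in the pulldowns (0.66, SE 0.11, adjusted p = 0.000751). For neither gene did the groups overlap.

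WDR19 (ENSG00000157796, chr4:39182504-39285810), a core subunit of the intraflagellar transport complex that carries cargo within cilia, rose from 27.0 and 31.6 CPM to 35.98 and 47.3 CPM (0.50, SE 0.13, adjusted p = 0.0129), although without the second pulldown its value was 0.30 and missed the threshold. WDR35, a subunit of the same complex, had 30.2 and 35.5 CPM in the inputs and 29.2 and 31.1 CPM in the pulldowns, which overlapped (−0.13, adjusted p = 0.506). The pair of transport subunits therefore gave different calls, and the difference between them was not tested. WDR97 (ENSG00000179698, chr8:144107726-144118328) had 8.19 and 8.98 CPM in the inputs and 15.2 and 10.7 CPM in the pulldowns (0.60, SE 0.19, adjusted p = 0.0379). Its pulldown replicates differed more than those of the other called members, and without the first of them its log2 fold change was 0.31 and no longer passed the threshold. With all libraries, its call was also lost with DESeq2 (0.61) and with cyclic loess (0.55).

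WDR4 (ENSG00000160193, chr21:42843094-42879568), the partner of METTL1 in N7-methylation of tRNA guanosine, had 31.8 and 33.4 CPM in the inputs and 47.4 and 38.5 CPM in the pulldowns (0.40, SE 0.12, adjusted p = 0.0229). Without the first pulldown its value was 0.23 and missed the threshold. It was the only called increase in a protein of up to 500 residues. WDR11 (ENSG00000120008, chr10:120851305-120909524), which tethers vesicles at the trans-Golgi, had 84.7 and 81.6 CPM in the inputs and 99.4 and 111 CPM in the pulldowns (0.34, SE 0.09, adjusted p = 0.0122). Apart from WDR4 and WDR27, the members that rose encode proteins of over 1000 residues.

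Of the members that fell, WDR18 (ENSG00000065268, chr19:984332-998438), part of the complex with PELP1 and TEX10 that acts in maturation of the large ribosomal subunit, had 87.7 and 80.1 CPM in the inputs and 64.0 and 56.6 CPM in the pulldowns (−0.47, SE 0.10, adjusted p = 0.00253). WDR54 (ENSG00000005448, chr2:74421678-74425755) fell from 84.1 and 88.8 CPM to 67.8 and 60.8 CPM (−0.43, SE 0.09, adjusted p = 0.0041). In both, every pulldown was below every input. WDR46 (ENSG00000227057, chr6:33279108-33289247), a small-subunit processome component, had 88.4 and 87.7 CPM in the inputs and 71.1 and 73.1 CPM in the pulldowns (−0.29, SE 0.09, adjusted p = 0.0269).

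The abundant members WDR1 and WDR6 fell by a smaller amount with a small error. WDR1 (ENSG00000071127, chr4:10068089-10116972) had 398 and 389 CPM in the inputs and 335 and 311 CPM in the pulldowns (−0.29, SE 0.07, adjusted p = 0.00876). WDR6 (ENSG00000178252, chr3:49007062-49015953) had 509 and 505 CPM in the inputs and 436 and 397 CPM in the pulldowns (−0.28, SE 0.07, adjusted p = 0.00865). WDR1, WDR6 and WDR46 kept their direction but lost their call when counts were scaled by library totals (−0.24, −0.23 and −0.24) or by cyclic loess (−0.16, −0.15 and −0.21). The TRiC calls also leaned on the first input library, without which 4 of 12 calls were made, those of WDR18, WDR27, WDR54 and WDR90. Without the second input there were 8 calls, among which WDR1, WDR4, WDR6, WDR11, WDR46 and WDR97 were missing.

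**Figure D2:**
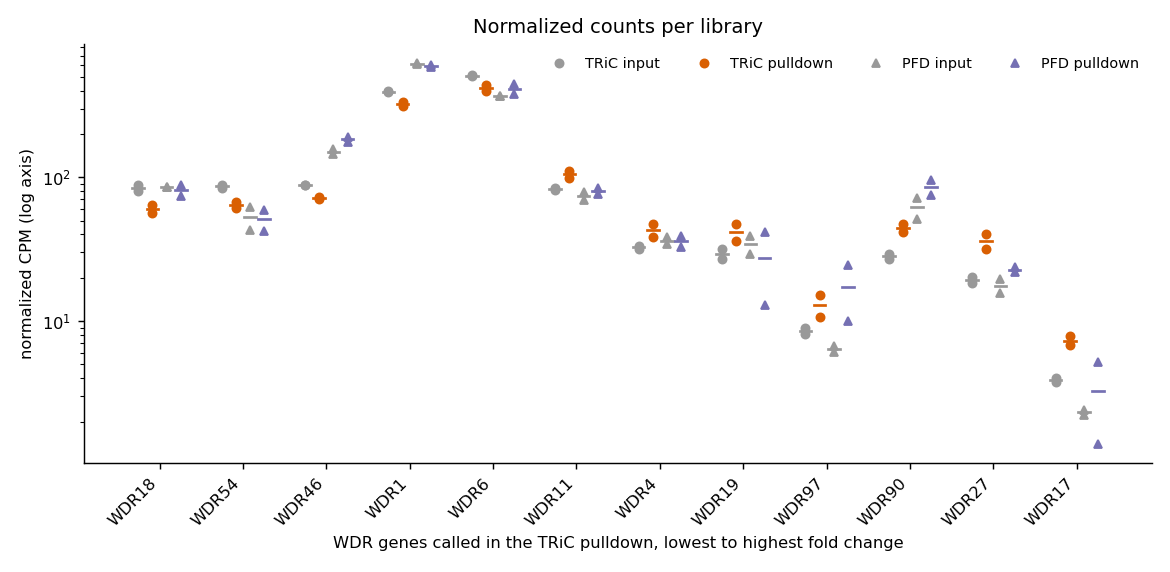
Normalized CPM (log axis) in each of the 8 libraries for the 12 WDR genes called in the TRiC pulldown, ordered from the lowest to the highest fold change, with the mean of each group as a bar. The TRiC pulldown and input points do not overlap for any of the 12, which follows largely from their choice by these TRiC values. The PFD points overlap for several, such as WDR17 at 5.18 and 1.40 CPM in the pulldowns against 2.23 and 2.41 CPM in the inputs. Of all genes tested, 29.3% lay above and 31.2% below their inputs without overlap in TRiC, against 18.3% and 20.4% in PFD.

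Without a threshold on p, both TRiC pulldowns lay above both inputs for 12 members and below both for 17, that is 24.5% and 34.7%, against 29.3% and 31.2% of all genes tested. The other 20 members overlapped. WDR5, the scaffold of the histone H3 lysine 4 methyltransferase complexes, was among those below, with 66.7 and 66.9 CPM in the inputs and 56.1 and 56.7 CPM in the pulldowns, but missed the threshold (−0.24, SE 0.09, adjusted p = 0.0711). WDR59 and WDR24 are subunits of GATOR2, which relays amino acid levels to mTORC1 at the lysosome. WDR59 had 55.0 and 60.7 CPM in the inputs and 64.6 and 67.7 CPM in the pulldowns (0.19, SE 0.10, adjusted p = 0.173), and WDR24, at 7.39 and 11.5 CPM against 10.8 and 8.90 CPM, overlapped. WDR3 had 616 and 280 CPM in the inputs and 364 and 323 CPM in the pulldowns, so that its fitted value of −0.38 (SE 0.20) turned to 0.30 without the first input. It was called lower without the second input (−0.85), without either pulldown (−0.48 and −0.29) and without a count filter (−0.39).

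**Figure D3:**
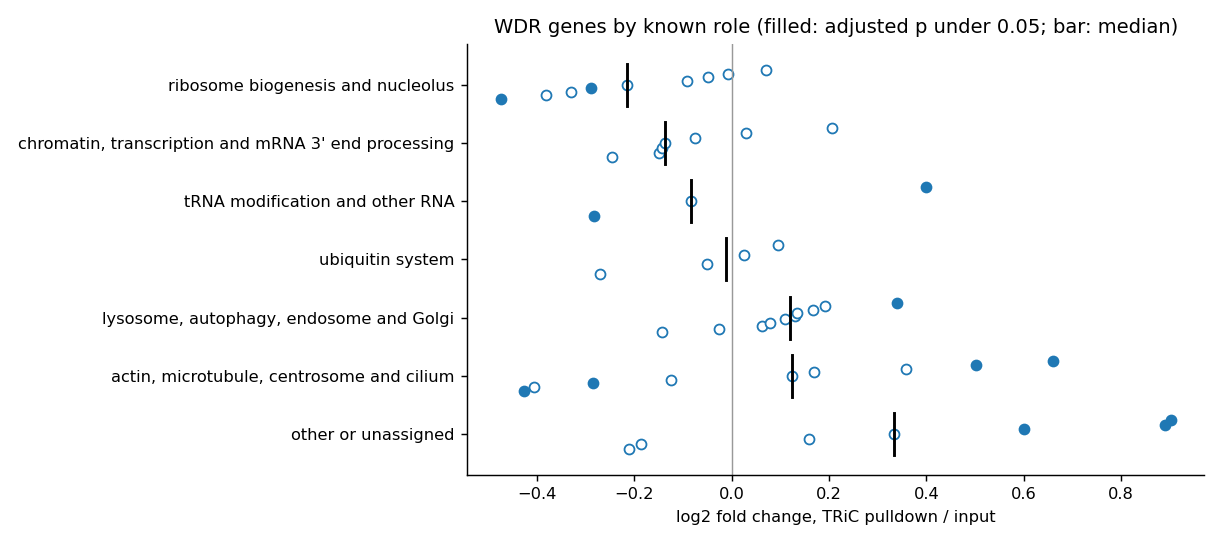
TRiC log2 fold change of each WDR gene, grouped by known role, with the median of each group as a bar and genes with an adjusted p under 0.05 filled. Of the ribosome biogenesis genes 8 of 9 lie below 0, and of the lysosome, autophagy, endosome and Golgi genes 8 of 10 lie above it, against 49.7% above 0 among all genes tested.

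By role, the 9 ribosome biogenesis and nucleolar members had the lowest median log2 fold change in the TRiC pulldown, −0.21, with 2 called lower (WDR18 and WDR46), 0 called higher and values from −0.47 to 0.07. These 2 of 9 (22.2%) stand against 10.6% called lower among all genes tested, and 11.1% of the group against 49.7% of all genes lay above 0. The single value above 0 was that of the processome component WDR75. The 7 members of chromatin, transcription and mRNA 3′ end processing had a median of −0.14 and no calls, and ranged from −0.24 (WDR5) to 0.21 (WDR76). WDR82, a subunit of the SET1 methyltransferase complexes and the shortest member at 313 residues, had 81.7 and 89.0 CPM in the inputs and 81.7 and 71.9 CPM in the pulldowns (−0.15, SE 0.09, adjusted p = 0.289).

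The 10 members of lysosome, autophagy, endosome and Golgi had a median of 0.12, with 1 called higher (WDR11, 10.0% against 8.64% of all genes) and 0 lower. They include the phosphoinositide-binding autophagy proteins WDR45 (0.17) and WDR45B (0.11), WDR41 of the C9orf72 complex (0.08), WDR7, which associates with the V-ATPase (0.13), and WDR81, the longest member at 1941 residues (−0.14), none of which was called. The 9 members of actin, microtubule, centrosome and cilium were divided, with 2 higher (WDR90 and WDR19) and 2 lower (WDR54 and WDR1). These are 22.2% each way, against 8.64% higher and 10.6% lower among all genes tested. The 4 ubiquitin-system members, which include the deubiquitinase activators WDR48 and WDR20, had a median of −0.01 and no calls. Of the 3 members grouped under tRNA modification and other RNA, WDR4 was higher and WDR6 lower, and both act in tRNA methylation. The 7 members without an assigned role had the highest median, 0.33, with 3 called higher (WDR17, WDR27 and WDR97). That is 42.9%, against 8.64% of all genes tested. Role and protein length were not separated. Median lengths were 342 residues in the chromatin group, 412 in the tRNA group, 544 without an assigned role and 610 in ribosome biogenesis. They were 623 in the ubiquitin group, 851.5 in the lysosome group and 919 in the actin and cilium group. A group median hides the lengths within a group. Without an assigned role, the called members had 895 (WDR27), 1283 (WDR17) and 1622 residues (WDR97). The members not called there had 387 (WDR89) to 544 residues (WDR25).

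The medians of the TRiC values followed protein length. The 20 members of up to 500 residues had a median log2 fold change of −0.11, the 18 of over 500 and up to 1000 residues 0.01 and the 11 of over 1000 residues 0.17. There were 1 higher and 2 lower calls among the short members, 1 higher and 2 lower among the middle ones, and 5 higher and 1 lower among the long ones. The exception among the long members was WDR6, with 1121 residues. The 7 members that rose had a median of 1283 residues (412 to 1748) and the 5 that fell 606 residues (334 to 1121).

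Other genes showed the same order. All tested protein-coding genes of the same classes had medians of −0.14, 0.03 and 0.18. In the long class 5 of 11 members (45.5%) were called higher, against 23.8% of all coding genes of that class, and 1 (9.09%) lower, against 2.09%. In the middle class 5.56% of members were higher and 11.1% lower, against 7.85% and 5.86%. In the short class 5.00% of members were higher and 10.0% lower, against 3.57% and 18.3%. Across members, the Spearman correlation of the log2 fold change with protein length was 0.394 (n = 49), and across 14611 coding genes it was 0.35. Genes share libraries and are not replicates, so these are descriptions. The TRiC value also ran with ribosome occupancy per kilobase, taken from the inputs of the other line, with a correlation of −0.458 across members and −0.384 across coding genes. Its part in the relation with length was not tested.

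In the PFD pulldown, 0 of 49 members passed the threshold in either direction, where 0.0496% of all 14111 genes tested were higher and 0.191% lower. At an unadjusted p under 0.05 there were 3 members (WDR3, WDR55 and WDR75; 6.93% of all genes), or, with DESeq2 at its adjusted threshold, 1 (WDR55, higher). Calls also appeared on leaving out 1 library, most without the second pulldown, and WDR3 was among them each time. The share of all genes called in these fits was not taken. The median log2 fold change was −0.04, with 23 values above 0 and 26 below, and the median standard error of 0.30 was larger than the 0.11 of the TRiC comparison. Both pulldowns lay above both inputs for 13 members and below both for 10, that is 26.5% and 20.4%, against 18.3% and 20.4% of all genes.

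The highest PFD value was that of WDR3, which had 278 and 243 CPM in the inputs but 2042 and 356 CPM in the pulldowns (2.20, SE 0.65, adjusted p = 0.631). The first pulldown library decided this value, which was 0.45 without it and 2.96 without the second. In that library WDR3 raised the members' share of counts to 0.564%, which without WDR3 was 0.365%. WDR97 had 6.12 and 6.75 CPM in the inputs and 24.5 and 10.0 CPM in the pulldowns (1.42, SE 0.64, adjusted p = 0.731), and its groups did not overlap in either line. Its PFD value was 0.63 without the first pulldown and 1.92, and called, without the second. WDR55, a nucleolar factor in ribosomal RNA processing, was the most even of the high members, with 36.8 and 27.2 CPM in the inputs and 59.0 and 56.0 CPM in the pulldowns (0.84, SE 0.28, adjusted p = 0.702).

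At the other end, WDR91, which acts in the maturation of endosomes, had 15.7 and 20.5 CPM in the PFD inputs and 3.02 and 13.3 CPM in the pulldowns (−1.13, SE 0.73, adjusted p = 0.863). WDR73 had 31.2 and 36.5 CPM in the inputs and 22.9 and 14.0 CPM in the pulldowns (−0.88, SE 0.38, adjusted p = 0.72). WDR35 had 60.5 and 56.2 CPM in the inputs and 23.2 and 44.04 CPM in the pulldowns (−0.79, SE 0.34, adjusted p = 0.72). All of these had non-overlapping groups but a wide spread between pulldowns. Without the first pulldown the values were −0.45 for WDR91, −1.27 for WDR73 and −0.41 for WDR35, and without the second −2.58, −0.57 and −1.34. WDR91 and WDR35 were called without the second pulldown and WDR73 without the first. WDR83, with 388 counts over the 4 inputs, had 0 counts in the first PFD pulldown, which allows up to 0.322 CPM with a limit of 3 counts.

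**Figure D4:**
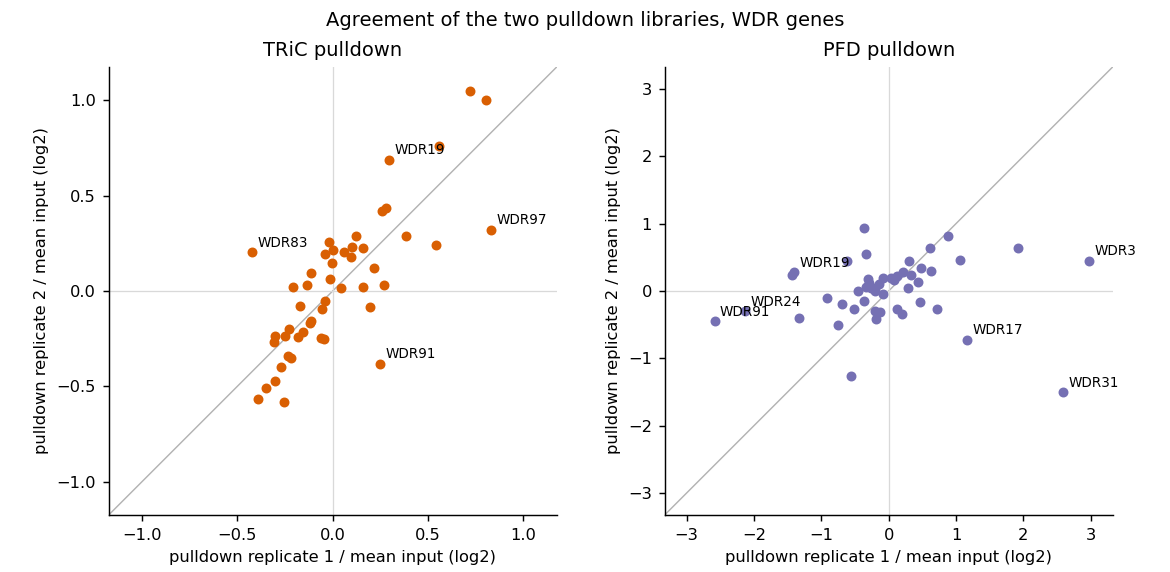
Log2 ratio of each pulldown replicate to the mean input for the WDR genes, replicate 1 on the horizontal and replicate 2 on the vertical axis, for TRiC (left) and PFD (right, wider axes), with the diagonal of equal values. TRiC points follow the diagonal, while in PFD several genes lie far from it, such as WDR3 and WDR31; WDR83, with 0 counts in the first PFD pulldown, is not plotted there.

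The members of best-known role had PFD values within 2 standard errors of 0. WDR1 had 610 and 622 CPM in the inputs and 580 and 599 CPM in the pulldowns (−0.06, SE 0.09, adjusted p = 0.964). WDR5 had 91.0 and 95.4 CPM against 77.9 and 95.9 CPM (−0.10, SE 0.19, adjusted p = 0.973), and WDR59 had 80.1 and 66.5 CPM against 64.3 and 55.1 CPM (−0.30, SE 0.22, adjusted p = 0.887). WDR24, at 5.39 and 4.05 CPM against 1.08 and 3.83 CPM, was poorly measured (−0.93, SE 1.26, adjusted p = 0.963). For the length classes, the PFD medians were −0.09, −0.03 and 0.12 in order of length, against −0.03, −0.0021 and 0.05 for coding genes. The correlation with length was 0.161 across members and 0.074 across coding genes.

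The difference between both enrichments was tested in 1 fit of all 8 libraries, and 0 of 49 members passed the threshold, where 0.0371% of all 18855 genes did. At an unadjusted p under 0.05 there were 8 members (14.8% of all genes), and DESeq2 called 3 (WDR6, WDR46 and WDR55). More members passed when either PFD pulldown was left out, most without the second. Shares over all genes were taken for the main fit only, so these calls and those of DESeq2 have no background. The smallest p was that of WDR46, which was lower in the TRiC pulldown and had 144 and 156 CPM in the PFD inputs against 189 and 177 CPM in the PFD pulldowns. The difference, TRiC minus PFD, was −0.56 (SE 0.14, adjusted p = 0.175). WDR6 had a difference of −0.43 (SE 0.12, adjusted p = 0.21), with 366 and 368 CPM in the PFD inputs and 447 and 376 CPM in the PFD pulldowns. WDR73 ran the other way, with a difference of 1.26 (SE 0.40, adjusted p = 0.234). Of the 7 members that rose with TRiC, 5 had a PFD value above 0, and of the 5 that fell, 3 had one below it. Among all genes tested in PFD 49.9% lay above 0, and agreement in sign was not tested.

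Propeller proteins without a WDR symbol were set beside the family, from a list of 149 genes of which 148 were tested for TRiC. The list includes TLE5, which with 197 residues and 0 Trp-Asp codon pairs may hold no propeller. TLE5 was called lower in the TRiC pulldown (−0.31, SE 0.08, adjusted p = 0.00941). Of the 148 tested, 13 (8.78%) were higher and 28 (18.9%) lower, against 8.64% and 10.6% of all genes tested. Their median log2 fold change was −0.09. For PFD 0 of 146 were called, where 0.0496% of all genes tested were higher and 0.191% lower. Named for how well they are known and not by rule, several of the 28 lower genes were the coatomer subunit COPA (−0.24, SE 0.07, adjusted p = 0.0151), the G protein β subunits GNB1 (−0.36, SE 0.08, adjusted p = 0.0044) and GNB2 (−0.53, SE 0.08, adjusted p = 0.000172) and the ribosome-bound scaffold RACK1 (−0.47, SE 0.07, adjusted p = 0.000202). Their relatives GNB3 (0.39), GNB4 (−0.24), GNB5 (−0.09) and COPB2 (−0.17) were not called. The 13 higher genes included FZR1 (0.27, SE 0.09, adjusted p = 0.0402), WSB1 (0.63, SE 0.10, adjusted p = 0.00032) and BRWD3 (0.77, SE 0.10, adjusted p = 4.82e-05). In the class of up to 500 residues, 21 of 63 listed genes (33.3%) were lower, against 2 of 20 WDR members (10.0%) and 18.3% of coding genes. These differences were not tested. Above 1000 residues, 9 of 28 (32.1%) were higher and 3 (10.7%) lower, against 23.8% and 2.09% of coding genes of that length. Their median was 0.18, close to the 0.17 of the WDR genes of that length.

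Counts per gene carry no position along the transcript, so a chaperone that joins ribosomes over a short stretch of a coding sequence enters these values only through the gene's total. Counting without strand could also have mixed reads from neighbouring genes, because whether strand was used is not stated in the sources used here. Opposite-strand genes had exons over 25% or more of the exonic bases in 5 members, WDR73 (70.0%), WDR83 (63.1%), WDR24 (35.7%), WDR55 (33.5%) and WDR33 (25.7%), and none of these was called for TRiC. The PFD values given for WDR24, WDR55, WDR73 and WDR83 carry this limit. So do the DESeq2 calls of WDR55 and the difference between the lines given for WDR73. Without these 5 members, the 44 others held the same 7 higher and 5 lower TRiC calls, with a median of 0.01. WDR5 and its close relative WDR5B shared 1 stretch of 30 coding bases, over which a fragment cannot be assigned to either.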

How the data were processed

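Ribosome-protected fragments were profiled in 8 libraries. The authors deposited raw counts per gene for each line, made per the methods by awk trimming and demultiplexing (the reporting summary names Trim Galore), UMI-tools deduplication, Bowtie2 2.4.2 removal of non-coding RNA and unique STAR 2.7.10a alignment to hg38 with at most 2 mismatches. The annotation release and strand setting are not given in the sources used here. Symbols, positions and protein lengths came from GENCODE release 44, which held 60463 of the 60664 identifiers.

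From these counts, each pulldown was tested against the inputs of its own line with edgeR 4.0.16 in R 4.3.3 (filterByExpr, TMM, quasi-likelihood F test, no block, Benjamini-Hochberg over all genes tested, threshold 0.05). The SE is the absolute log2 fold change divided by the square root of F. The enrichments of both lines were compared as an interaction over all 8 libraries. The test was checked on simulated counts. Libraries held 9523128 to 32637658 counts, so counting error is small except for the rarest members, and limits from counts cover counting error only. P-values measure the spread between 2 replicates per group.

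The members, role lists and propeller list were chosen with earlier results of these data known, so no list was tested. Every called member was named, with the highest and lowest 3 of each line (mean of at least 100 counts), the 5 highest levels per kilobase, the 2 shortest and 2 longest members, and WDR1, WDR5, WDR24 and WDR59. Levels per kilobase divide the mean input CPM by the coding length. Alternatives were DESeq2 1.42.0, library totals, cyclic loess with limma 3.58.1, no count filter, at least 10 counts in every library, all 8 libraries in 1 fit, a replicate block, the longest transcript, at least 1000 input counts, and leaving out each library.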

Additional observations from a re-analysis of the deposited data

How the results depend on the processing

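The TRiC calls depended on the spread estimate. With all 8 libraries in 1 fit, 0 members were called, 0 higher and 0 lower. Leaving out each TRiC library in turn gave 4 to 13 calls, 2 to 6 higher and 2 to 7 lower, with the fewest without the first input (4, of which 2 were higher and 2 lower) and 3 lower without the second. A lone replicate is then assumed to vary like the other group. The 5 lower calls became 2 under library totals and 2 under cyclic loess. The median log2 fold change of the members ranged from −0.0653 to 0.0325 over these omissions, around −0.0078. The difference in median between members of over 1000 and of up to 500 residues was 0.28 for TRiC, 0.33 with cyclic loess, 0.31 with the longest transcript and 0.28 to 0.31 over the omissions. For PFD it was 0.21, and 0.15 to 0.44 over the omissions.

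In PFD, 1 member was called with DESeq2 (WDR55, higher), 1 without a count filter (WDR3, higher) and 1 to 9 on leaving out a library (1 to 4 higher, 0 to 5 lower), the most without the second pulldown. Between the lines, DESeq2 called 3, the fit without a count filter 1 (WDR3), and leaving out a library gave 0 to 15, 2 without the first and 15 without the second PFD pulldown. The causes were not tested. The share of all genes called was taken for the main fit only, so the counts of calls in the alternative fits have no background here. Signs turned on leaving out a library for WDR24 in TRiC (−0.0986 without the first pulldown, and −0.2156 without the first to 0.4047 without the second input), WDR3 in TRiC (0.2969 without the first and −0.8525 without the second input) and WDR5 in PFD (0.0389 without the first and −0.262 without the second pulldown). None of the 3 was called in the report, but WDR3 was called in TRiC without the second input, without either pulldown and without a count filter.

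Replicate numbers were not shown to pair the samples: deviations of same-numbered libraries correlated at 0.0587 for TRiC and −0.00887 for PFD. With the number as a replicate block, 14 members were called for TRiC (7 higher, 7 lower), adding WDR5 and WDR74, 1 for PFD (WDR3, higher) and 0 between lines, and the length difference was 0.29 for TRiC.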
